A study of Saccharomyces cerevisiae with 5 samples.

Results

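The genes described here encode 46 assembly factors of the large (60S) ribosomal subunit in budding yeast, from proteins that act in the nucleolus to those that act in the cytoplasm. They were chosen by name, with earlier results of these data known, and their probe sets were read across 5 phosphate doses. The arrays hold probe sets for 5656 genes, of which 4824 passed a filter on dim signals, and all 46 members did. Every culture was of strain W303 with the genotype PHO4-MYC::TRP1, a tagged copy of the transcription factor gene of the phosphate response with its selection marker. Growing cultures were starved of phosphate for 3 h, and the phosphate in the medium was then set to 0, 0.01, 0.1, 1 or 10 mM for 80 min. There was 1 Affymetrix array for each of these 5 groups, hence no replicates and no replicate error for a difference between 2 doses. The labels do not say whether the cultures were grown in parallel or how many clones of the strain were used.

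The large subunit forms around a long precursor RNA in the nucleolus, where assembly factors bind in steps while the RNA is folded, modified and cut. RNA helicases and GTPases drive many of these steps, and export factors then carry the particle through the nuclear pore. In the cytoplasm the last factors are released and recycled. Genes for these factors form a large part of the ribosome biogenesis regulon of yeast, whose RNA levels are known to follow nutrient supply and growth rate.

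The values are signals of the MAS5 algorithm on a linear scale. The background was taken as the 40th percentile over all values, a signal of 11.4, and no member was below it at any dose. The median signal per array ranged from 17.0 to 25.5. PHO84, for the high-affinity phosphate transporter, served as a check of the doses and had signals of 1369.9, 1157, 172, 27.8 and 27.4 from 0 to 10 mM. The tagged gene PHO4 had 62.7, 44.8, 76.3, 54.3 and 78.8, and its marker TRP1 had 110, 62.3, 109, 84.1 and 125. Both were lowest at 0.01 mM, as 26.6% of all genes were, and higher again at 0.1 mM. Neither passed the test on dose order described below. A culture yields RNA of all its cells together, so fewer cells with an RNA and less of it per cell cannot be told apart.

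Most members shared an order of signals. They were lower with 0.01 mM phosphate than with none, higher with 0.1 mM than with either, and differed less among 0.1, 1 and 10 mM. Relative to 0 mM the median member had a log2 difference of -0.71 with 0.01 mM, 0.62 with 0.1 mM, 0.44 with 1 mM and 0.58 with 10 mM phosphate. The median of all genes was at -0.24, -0.20, -0.37 and -0.26, so the members lay below it at 0.01 mM and above it at the 3 higher doses. The signal was lowest at 0.01 mM for 44 of the 46 members, against 26.6% of all genes.

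**Figure D1:**
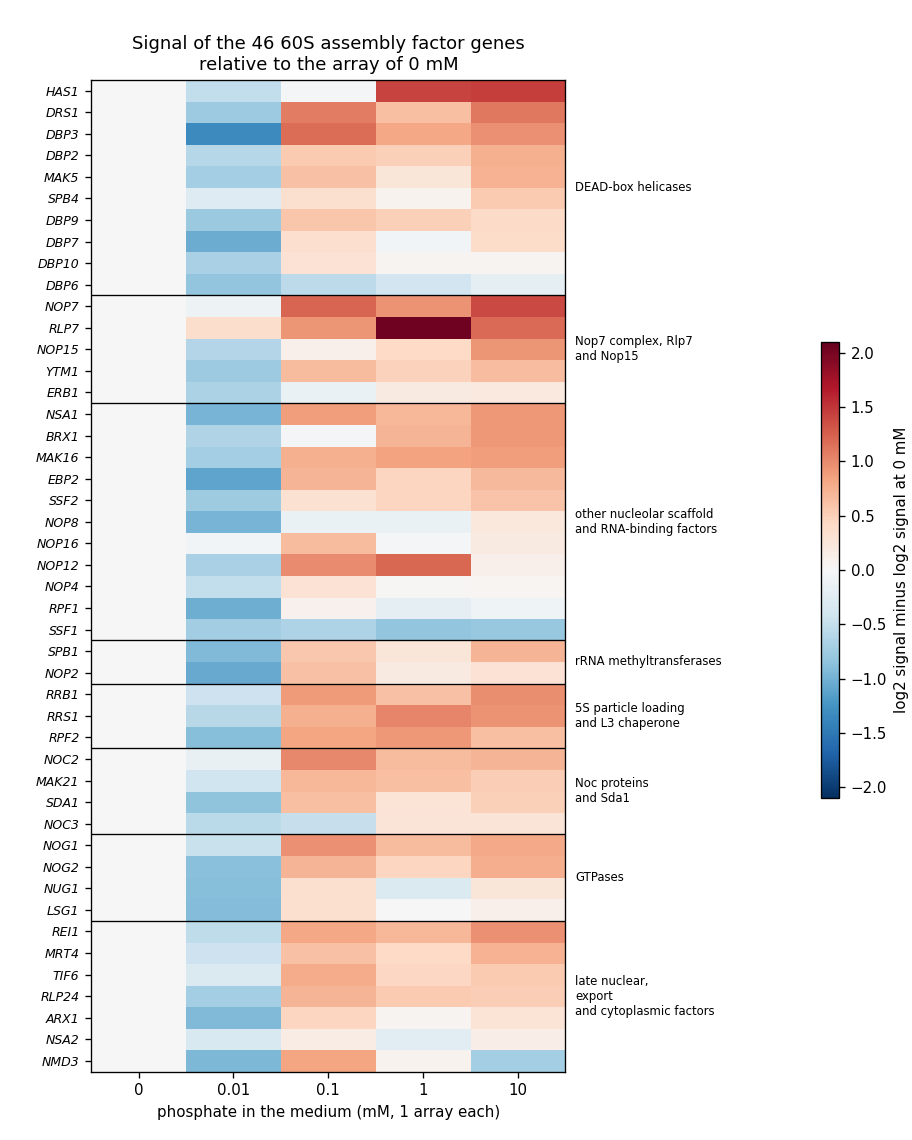
Log2 signal of each of the 46 members (rows, grouped by role) at 5 phosphate doses (columns, 1 array each), as the difference from the array of 0 mM. Blue is lower and red is higher than at 0 mM. The column of 0.01 mM is blue for 45 of the 46 rows, and most rows are red from 0.1 mM on.

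Between 0 and 0.01 mM, 45 of the 46 members differed downwards, against 69.5% of all genes, and 42 lay below the median of all genes. With arrays scaled to 1 common median 41 were lower at 0.01 mM. With arrays scaled to equal signal of the poly-A spike-in controls 0 were, since those controls were lower on each array of a higher dose. At least 2-fold lower were 5 members, DBP3, EBP2, NOP2, DBP7 and RPF1, against 6.84% of all genes. That count was 1 with arrays at 1 common median. RLP7 was the exception, with 49.1 at 0 mM and 63.8 at 0.01 mM. Over this step the signal of the 3' control probe set over that of the 5' one, a sign of RNA integrity, was 2.37 and then 3.00 for ACT1, and 2.63 and then 4.52 for TBP. The difference had a Spearman correlation with gene length of -0.13 across the 46 members and -0.25 across all 4824 genes, over points that share the same pair of arrays. The part of these in the members' lower signals was not tested.

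Over the step from 0.01 to 0.1 mM the members' signals were higher together. All 46 were higher at 0.1 mM, against 50.9% of all genes, and 32 were at least 2-fold higher, against 12.8%. None was 2-fold lower, as 12.3% of all genes were. The median difference was 1.28 (log2), or 2.43-fold, and 0.01 for all genes. Members ranged from 1.05-fold for SSF1 to 5.70-fold for DBP3. Over the same step the 3' over 5' control ratio went from 3.00 to 1.11 for ACT1 and from 4.52 to 2.01 for TBP. Its part in the members' difference was not tested. Across the 46 members the difference over this step had a Spearman correlation of 0.10 with gene length, and across all genes of 0.05. These points share the same 2 arrays.

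**Figure D2:**
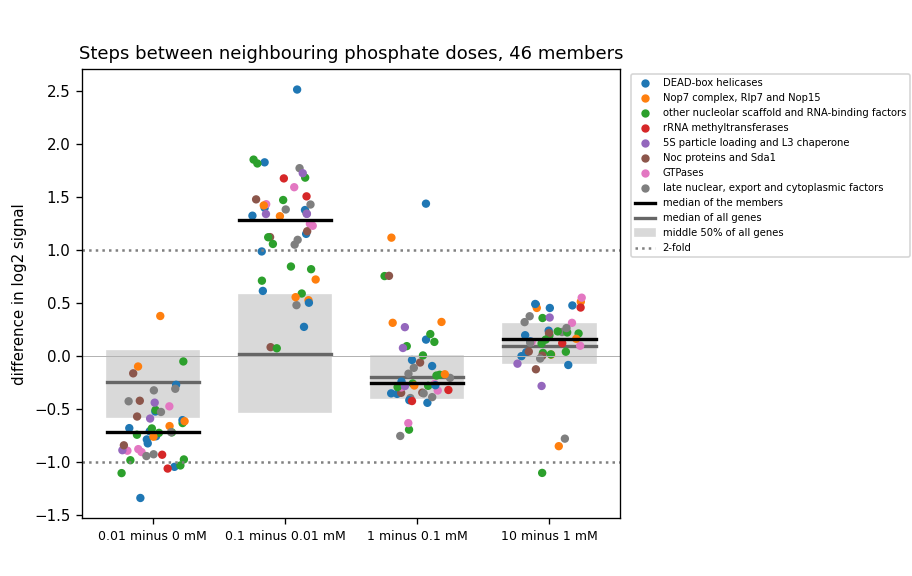
Differences in log2 signal between neighbouring doses for the 46 members (points, coloured by role), with their median (black bar), the median of all 4824 genes (grey bar) and the range between the quartiles of all genes (grey box). Dotted lines mark a 2-fold difference. From 0.01 to 0.1 mM the members' median of 1.28 lies above the box, and in the last 2 steps it is -0.25 and 0.16.

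Above 0.1 mM the members differed little between doses. The median difference was -0.25 from 0.1 to 1 mM, where all genes had -0.20, and 0.16 from 1 to 10 mM, where all genes had 0.10. HAS1 and RLP7 were at least 2-fold higher at 1 mM than at 0.1 mM, against 1.26% of all genes, and NOP12 was at least 2-fold lower at 10 mM than at 1 mM, against 0.808%. The highest signal was at 0.1 mM for 20 members, at 1 mM for 4 and at 10 mM for 20, where the shares of all genes were 23.6%, 5.16% and 14.4%. It was at 0 mM for the other 2, DBP6 and SSF1, against 43.6% of all genes.

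Between the ends of the doses the members differed less than over the single step. At 10 mM 42 of the 46 were higher than at 0 mM, against 37.3% of all genes, and 44 were above the median of all genes. The median difference was 0.58, and 0.84 relative to all genes. Only HAS1, NOP7, RLP7 and DRS1 were at least 2-fold higher. That count is near the share of all genes, 7.52%, and became 25 with arrays at 1 common median and 18 after quantile normalization, under which 775 and 687 of all genes were. None was 2-fold lower, against 21.2% of all genes.

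With 1 array per dose, the test was a straight line of log2 signal on dose order, fitted for all genes with limma and adjusted by the Benjamini-Hochberg method. None of the 46 members passed, while 1.16% of all genes rose and 8.13% fell. Of all genes 0 rose and 0 fell with arrays at 1 common median, and 2 rose and 2 fell after quantile normalization. They were 0 and 0 too with the background at the 60th percentile and without the array of 0, 0.01 or 1 mM, and 0 and 1 without the filter on dim signals. Slopes were above 0 for 44 members, against 39.0% of all genes, with a median of 0.23 (log2 per dose step). Standard errors of the members ran from 0.09 for NSA2 to 0.20 for DBP3, where the median over all genes was 0.10. The smallest adjusted p was 0.0625, for HAS1, and 10 members had an unadjusted p under 0.05, against 32.1% of all genes. A line takes the low signals at 0.01 mM and the level stretch above 0.1 mM as error. Scaling to the hybridisation controls brought 2 members past the test, HAS1 and RLP7, where 146 of 4837 genes rose. Leaving out the array of 0.1 mM brought HAS1 and NOP7, where 226 of all genes rose, and leaving out that of 10 mM brought RLP7, where 117 did.

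**Figure D3:**
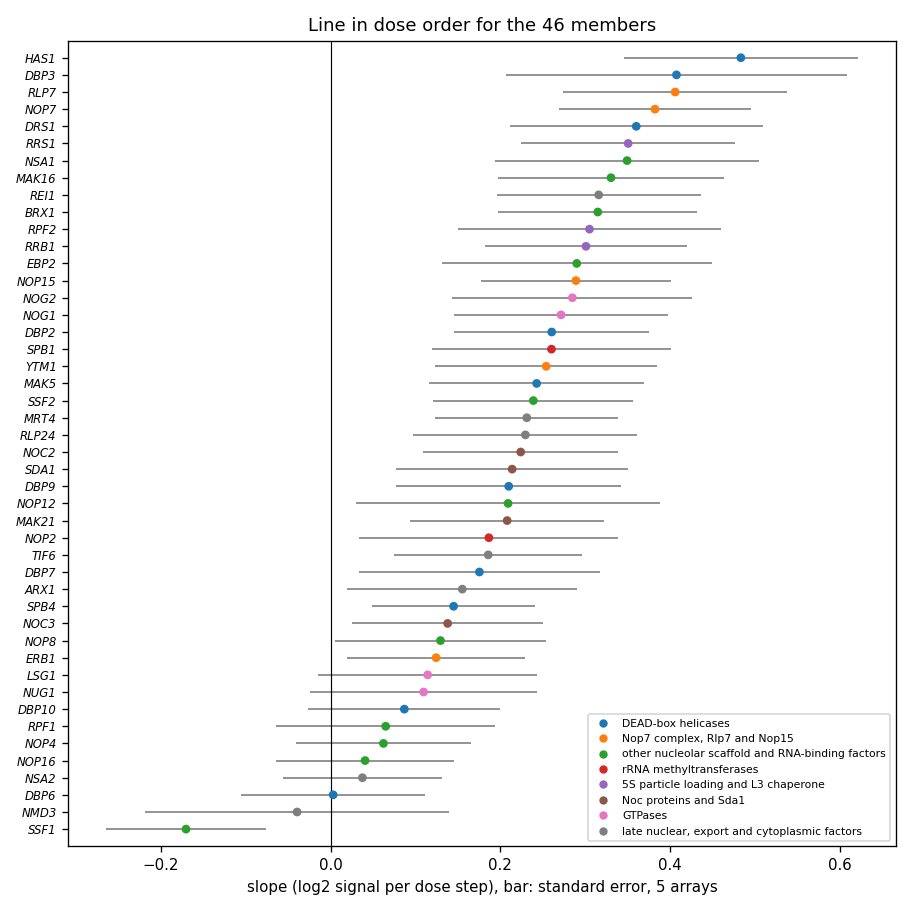
Slope of log2 signal per dose step for each member (points, coloured by role) with its standard error (bars) from the fit over 5 arrays. The slopes run from -0.17 for SSF1 to 0.48 for HAS1, and none passed the test after adjustment over all genes.

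A second fit set 0 and 0.01 mM against 0.1, 1 and 10 mM. This split of the doses was taken from earlier results of these data, so its p-values lean on the pattern that they test. It also takes arrays of different doses as replicates of each other. Its counts therefore describe the pattern and are no evidence for it. In this fit 25 members passed with higher signals from 0.1 mM on and 0 with lower ones. Of all genes 11.4% were higher and 22.0% lower. The signals at 0.1, 1 and 10 mM were all above both lower doses in 33 members, against 21.9% of all genes. In the other 13 the ranges overlapped.

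DEAD-box helicases use ATP to unwind or remodel RNA, and 10 of the members belong to this family. All 10 were lowest at 0.01 mM, as were 44 of the 46 members and 26.6% of all genes. From 0.01 to 0.1 mM 6 were at least 2-fold higher, against 32 of the 46 members and 12.8% of all genes. The group's median difference was 1.24, and that of all members 1.28. HAS1, which acts in the making of both subunits, had signals of 54.1, 37.6, 53.3, 144 and 148 from 0 to 10 mM. Its high values were those of 1 and 10 mM, and the value at 0.1 mM was still close to that of 0 mM. The 2.73-fold difference between the ends came with a slope of 0.48 ± 0.14 (SE, 5 arrays; adjusted p = 0.0625, limma).

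DRS1, a helicase of nucleolar 60S particles, had signals of 57.6, 34.1, 121, 89.0 and 124. All 3 higher doses lay above both lower ones. The slope of 0.36 ± 0.15 did not pass (adjusted p = 0.143, limma). In the second fit, whose split of doses came from these data, the higher doses were above by 1.31 ± 0.29. DBP3, whose helicase helps in the cutting of the first internal spacer, had 131, 52.0, 296, 232 and 255. It had the members' largest step, 5.70-fold, from the lowest to the highest of its signals, and a slope of 0.41 ± 0.20 (adjusted p = 0.204).

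DBP6, for a helicase of the earliest 60S precursors, went another way, with 80.3, 45.4, 54.9, 61.1 and 70.0. No higher dose reached the value of 0 mM. Its slope was 0.0029 ± 0.11 (adjusted p = 0.989, limma), which was -0.058 without the array of 0.01 mM and -0.091 without that of 10 mM. DBP2, a helicase gene that serves several RNA pathways, is read by a pair of probe sets. One had 254, 126, 309.8, 257 and 392, the other 634, 552, 1106, 1265 and 1155. Both were lowest at 0.01 mM, and they differed 2.46-fold and 2.01-fold between 0.01 and 0.1 mM.

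NOP7, ERB1 and YTM1 encode a 3-part complex that binds early 60S particles, and RLP7 and NOP15 encode RNA-binding partners at the second internal spacer. NOP7 had signals of 22.7, 21.2, 52.7, 43.5 and 59.5. The signals at 0 and 0.01 mM were close together and those at the 3 higher doses at least 1.92 times as high. Its slope of 0.38 ± 0.11 did not pass (adjusted p = 0.0674, limma). In the second fit, whose split of doses came from these data, NOP7 was higher by 1.23 ± 0.22 from 0.1 mM on.

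ERB1, by contrast, had 229, 145, 209, 261 and 263, with the value of 0.1 mM below that of 0 mM, and a slope of 0.12 ± 0.10 (adjusted p = 0.443, limma). YTM1, between them, had 181, 107, 285, 253 and 283, so its 3 higher doses lay above both lower ones. The genes of this complex therefore differed 2.62-fold, 1.15-fold and 1.57-fold between the ends, in the order NOP7, ERB1, YTM1.

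RLP7, which is related in sequence to a ribosomal protein of the L7 family, was the member with its lowest signal at 0 mM. Its signals were 49.1, 63.8, 93.6, 203 and 112, highest at 1 mM. The slope was 0.41 ± 0.13 (adjusted p = 0.0840, limma). NOP15 had 194, 127, 209, 259 and 369, with each dose above 0.01 mM higher than the one before it.

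The 11 other nucleolar factors varied among themselves. Their differences between the ends ran from -0.80 for SSF1 to 0.91 (log2) for NSA1, with a median of 0.22, below that of each other role. NSA1, part of a module with RPF1 and MAK16, had signals of 45.8, 23.3, 84.0, 74.3 and 86.0. Its lower and higher doses did not overlap, with a slope of 0.35 ± 0.16 (adjusted p = 0.169, limma). MAK16 did likewise with 39.98, 24.3, 67.2, 71.7 and 73.1.

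RPF1, of the same module, had 97.3, 47.6, 103, 84.4 and 91.5. Its signals at 1 and 10 mM were below that of 0 mM. BRX1, a factor with a Brix domain, had 237, 153, 229.7, 387 and 443, high at 1 and 10 mM only, and a slope of 0.31 ± 0.12 (adjusted p = 0.113). NOP12, an RNA-binding protein gene, had 24.5, 15.3, 48.9, 56.4 and 26.3. It was high at 0.1 and 1 mM and at 10 mM back at the level of 0 mM.

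SSF1 and SSF2 are near-identical copies of 1 gene, and SSF proteins bind early 60S particles through a Brix domain. SSF1 had 167, 101, 106, 93.3 and 95.9, high at 0 mM and level at all 4 other doses. It was the member farthest from the median profile, with a root mean square distance of 1.13 (log2), and its slope was -0.17 ± 0.09 (adjusted p = 0.252, limma). SSF2 had 19.7, 11.8, 24.5, 26.9 and 29.9, with a root mean square distance of 0.15 from the median profile. These SSF2 values come from 1 probe set of the kind that can also match similar sequences. The other SSF2 probe set stayed below background, at 6.63 to 9.97, so how signal divides between the copies is uncertain.

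**Figure D4:**
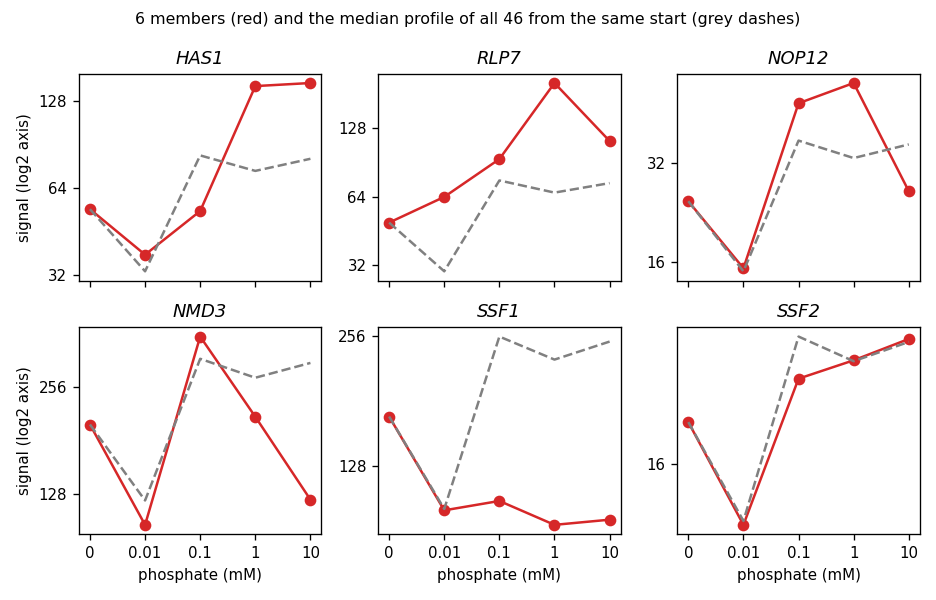
Signals of HAS1, RLP7, NOP12, NMD3, SSF1 and SSF2 (red, log2 axis) at 5 phosphate doses, with the median profile of the 46 members drawn from each gene's own signal at 0 mM (grey dashes). HAS1 reaches its high level at 1 mM, NMD3 is high at 0.1 mM and low at 10 mM, and SSF1 lies between 93.3 and 106 from 0.01 mM on while SSF2 lies close to the dashes.

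Of the rRNA methyltransferases, NOP2 modifies a cytosine and SPB1 a ribose of the large-subunit RNA. NOP2 had signals of 189, 90.7, 289, 215 and 234, and SPB1 had 53.6, 28.1, 79.8, 63.9 and 87.7. In both genes 0.01 mM was lowest, by 2.09-fold and 1.91-fold below 0 mM, and the 3 higher doses lay above both lower ones. Neither slope passed, with adjusted p of 0.429 and 0.242 in limma.

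RPF2 and RRS1 encode the pair that loads the 5S RNA particle, and RRB1 encodes a chaperone of ribosomal protein L3. All 3 were higher at each of the 3 higher doses than at either lower one. So were 33 of the 46 members and 21.9% of all genes. RPF2 had signals of 311, 168, 554, 583 and 479.6, a 3.30-fold step from 0.01 to 0.1 mM. RRS1 had 54.4, 36.1, 91.4, 110.3 and 105, and RRB1 had 82.9, 61.1, 155, 127 and 163. Their slopes were 0.31 ± 0.15, 0.35 ± 0.13 and 0.30 ± 0.12 (adjusted p = 0.215, 0.105 and 0.130, limma). The protein partners' genes had another order at low dose. They were higher at 0.01 mM than at 0 mM, as were all 47 measured genes for large-subunit ribosomal proteins. RPL3, the client of Rrb1, had 424 at 0 mM and 592 at 0.01 mM, and RPL5, whose protein binds 5S RNA, had 352.5 and 704.5. Both were named for their binding partners after the data were seen.

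MAK21, NOC2 and NOC3 encode the Noc proteins, of which Noc2 pairs first with Mak21 and then with Noc3 as particles move from the nucleolus to the nucleoplasm. MAK21 had 48.8, 36.4, 79.2, 75.9 and 69.6, and NOC2 had 22.7, 20.3, 45.8, 36.0 and 37.0, both with higher and lower doses apart. NOC3 had 32.2, 21.7, 23.0, 38.8 and 38.8, so at 0.1 mM it was still near its value at 0.01 mM. Over that step MAK21 and NOC2 differed 2.17-fold and 2.26-fold and NOC3 1.06-fold. SDA1, needed for export of 60S particles, had 75.2, 42.0, 117, 91.9 and 107.

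The 4 GTPase genes each differed over 2-fold from 0.01 to 0.1 mM, between 2.34-fold for NUG1 and 3.01-fold for NOG2. Of all genes 12.8% were at least 2-fold higher over that step. NOG1, whose protein binds in the nucleolus and leaves in the cytoplasm, had signals of 146, 105, 283, 231 and 253, all 3 higher doses above both lower ones. LSG1, the GTPase of the last cytoplasmic steps, had 55.6, 29.7, 70.4, 56.2 and 60.1, so its values at 1 and 10 mM were close to that at 0 mM. Neither passed on dose order (adjusted p = 0.183 and 0.569, limma). NOG2 is read by a pair of probe sets, with 507.5, 441.5, 769, 770.3 and 687 in one and 79.5, 27.1, 141, 97.6 and 169 in the other. Their directions matched at the first 2 steps, but the sizes differed, 1.74-fold against 5.20-fold between 0.01 and 0.1 mM.

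Late nuclear, export and cytoplasmic factors had a median difference of 1.34 from 0.01 to 0.1 mM. At least 2-fold higher were 6 of the 7, against 12.8% of all genes. REI1, a cytoplasmic factor that helps release the export factor Arx1, had signals of 103, 71.3, 181, 167 and 200.5. MRT4, a placeholder for a stalk protein of the ribosome, had 450.1, 335, 693, 600.4 and 749. In both genes the lower and higher doses did not overlap, and the slopes of 0.32 ± 0.12 and 0.23 ± 0.11 did not pass (adjusted p = 0.119 and 0.183, limma). The probe set of REI1 is of the kind whose probes can be shared with similar sequences.

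NMD3, the adaptor that links the 60S particle to the export receptor Crm1, parted from its group. Its signals were 201, 104, 356, 211 and 123, high at 0.1 mM and then lower with each dose, and 1.63-fold below 0 mM at the highest dose. The slope was -0.04 ± 0.18 (adjusted p = 0.896, limma) and turned to 0.08 with arrays at 1 common median. ARX1, another export factor, had 156, 82.0, 213, 162 and 189.7, without that decline. The remaining members of the group, TIF6, RLP24 and NSA2, were 2.14-fold, 2.69-fold and 1.39-fold higher at 0.1 than at 0.01 mM.

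Other genes of ribosome assembly are set beside the members by their counts and medians. Of all genes 12.8% were at least 2-fold higher at 0.1 than at 0.01 mM, and 1.16% rose on dose order. Of 43 further 60S factors, all measured, 0 passed on dose order and 26 were at least 2-fold higher at 0.1 than at 0.01 mM, with a median difference of 1.11. PWP1 had signals of 171, 94.4, 363, 304 and 416, and RRP1 had 104.5, 99.1, 224, 199 and 237. Of 51 genes of the small-subunit processome, which builds the other subunit, 0 passed and 34 were at least 2-fold higher over that step, with a median of 1.20. Its helicase gene ROK1 was 3.28-fold and UTP9 2.82-fold higher at 10 than at 0 mM. Among the 8 genes for RNA polymerase I and its factor Rrn3, 0 passed and 7 were 2-fold higher over the step, and RPA34 and RPA49 differed 2.63-fold and 2.02-fold between the ends. Of 7 measured genes for the small nucleolar RNP core 1 rose, NOP56 (slope 0.46, adjusted p = 0.0498, limma), and GAR1 was 2.12-fold higher at 10 mM. The call of NOP56 was lost in 8 of 16 other settings, among them arrays at 1 common median (adjusted p = 0.0630, limma). Its adjusted p in limma ranged from 4.07e-09 to 0.391 over the 16. They include log10 dose, which equals dose order by construction and could not lose the call.

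Large-subunit ribosomal protein genes, whose products the members assemble, are set beside them at each dose. Of 81 genes 47 were measured on their own probe sets, and all 47 had a higher signal with 0.01 mM than with none (median log2 difference 1.23), where 45 of the 46 assembly factor genes had a lower one (median -0.71). These medians share the same 2 arrays, and the difference between the lists was not tested. Of all 4824 genes 1374 were higher and 3351 lower over this step. The 3' over 5' control ratios were highest at 0.01 mM, with 3.00 for ACT1 and 4.52 for TBP. Across all genes the difference had a Spearman correlation of -0.25 with gene length. The part of either in the contrast between the lists was not tested. Relative to 0 mM the ribosomal protein median went on to 2.23 at 0.1 mM and 2.05 at 10 mM, against 0.62 and 0.58 for the assembly factors. At 10 mM 46 of the 47 were higher than at 0 mM, against 37.3% of all genes. The exception was RPL15B, named after its values were seen, with signals of 710, 722, 119, 258 and 208. On dose order 10 of the 47 rose and 0 fell, against 1.16% and 8.13% of all genes. The 10 became 0 with arrays at 1 common median, after quantile normalization, with the background at the 60th percentile, without the filter on dim signals and without the array of 0, 0.01 or 1 mM. They became 46 with poly-A controls, 39 in the split of doses, and 35 and 31 without the array of 0.1 or 10 mM. Of all genes 4315, 549, 226 and 117 rose in those settings. The split, taken from these data, had 1 lower, RPL15B, against 22.0% of all genes. The count that rose was 30 with hybridisation controls, 23 with a pseudocount and 18 with a variance trend. There 146, 90 and 78 of all genes rose. RPL7B had signals of 25.6, 56.9, 423, 331 and 423, and RPL7A had 67.0, 157, 1012, 793 and 755. They are near-identical copies, so how their signal divides is uncertain.

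**Figure D5:**
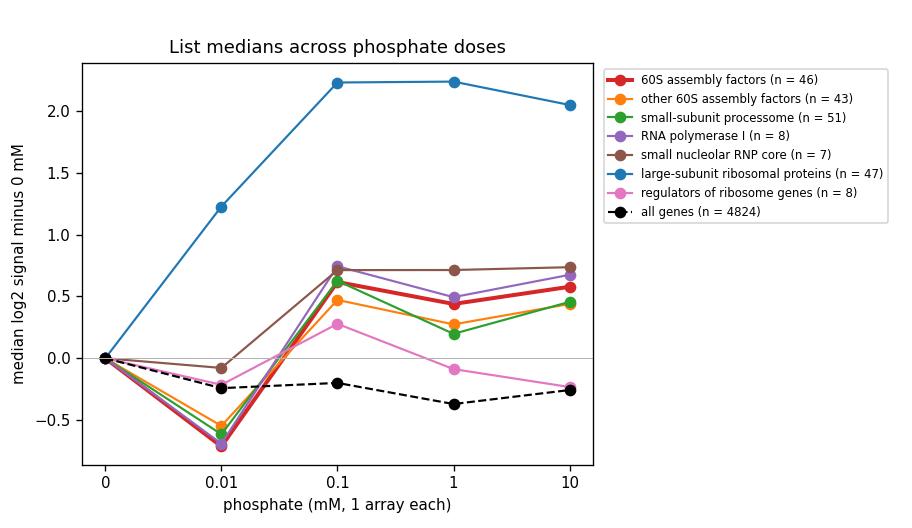
Median log2 signal of each gene list relative to the array of 0 mM at 5 phosphate doses (1 array each), with the number of measured genes in the key. The 46 assembly factors (thick red) lie at -0.71 at 0.01 mM and at 0.62 at 0.1 mM, while the large-subunit ribosomal proteins (blue) are at 1.23 and 2.23.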

How the data were processed

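Expression was measured in 5 samples, 1 per dose. Intensity values per probe set, on a linear scale, were deposited by the authors, who used MAS5 according to the submitters' processing notes. Version, scaling target and filters of MAS5 are not given in the sources. Per the labels' protocols, 6 ug of cDNA went into the biotin-labelled cRNA of an array.

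Of 9335 probe sets 6504 had 1 gene in the platform annotation and were named by gene identifier through RefSeq R64. Values below the 40th percentile (11.4) were set to it, log2 was taken, probe sets at or above it on at least 2 arrays were kept (5083), and those of a gene were averaged. Lines were fitted with limma 3.58.1 in R 4.3.3 (3 residual degrees of freedom, 7.64 after moderation; Benjamini-Hochberg over 4824 genes at 0.05). The fit was tested on simulated straight lines with independent scatter, which does not cover shifts that the genes of an array share. P-values measure the scatter of 5 arrays around a line. The number of arrays limits the precision.

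The members and lists were chosen with earlier results of these data known. Named were, per role, the 2 members with the largest and the 1 with the smallest difference between 10 and 0 mM, SSF1 and SSF2, and the 2 largest differences of each other list; further members named in the text were chosen after their values were seen. Other settings tried were 4 scalings, 2 background levels, a pseudocount, no filter, log10 dose, a variance trend, the split of doses and each array left out. Promoter sequences were not used here.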

Additional observations from a re-analysis of the deposited data

Results flagged for a closer look

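Signals of the array's probe sets for mature ribosomal RNA, which no comparison uses, stood above the background level of 11.4 on each array. For 25S RNA, the main RNA of the large subunit, the ratio of the signal at 0 mM to that at 10 mM was 0.797, 8.58, 15.1, 11.4 and 1.44 for probe sets a to e. For 18S RNA it was 1.32, 2.79, 2.07, 5.26 and 16.9. Poly-A spike-in controls had a 10.4-fold higher geometric mean signal at 0 mM than at 10 mM, over 12 probe sets. The groups of 1 array allowed no search for outlying samples.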

How the results depend on the processing

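No paired analysis was possible because each dose has 1 array. The median member difference relative to all genes kept its direction in all 3 dose pairs under the 8 other settings (0.67 to 0.87 for 10 against 0 mM, -0.40 to -0.54 for 0.01 against 0 mM, 1.08 to 1.28 for 0.1 against 0.01 mM). With arrays at equal poly-A signal, which raises all genes alike, the medians were 3.96, 1.04 (reversed from -0.71) and 2.18, the median slope was 1.04, all 46 members passed (4315 of 4824 genes rose), 46 and 27 were 2-fold higher at 10 and at 0.01 mM than at 0 mM (4657 and 4078 of all genes), and 0 were lower or lowest at 0.01 mM. With arrays at 1 median the difference between the ends was 1.05 and the median slope 0.35. At least 2-fold higher between the ends were 25, 18 and 12 members with 1 median, quantile normalization and hybridisation controls. At least 2-fold lower at 0.01 mM was 1 under each of those and with a pseudocount, and 0 with poly-A controls. Members that rose numbered 2 with hybridisation controls, 25 in the split of doses and 0 to 2 with an array left out; the median slope was then 0.14 to 0.36. Log10 dose, evenly spaced with 0.001 mM for 0 mM, equals dose order by construction. Among named slopes and, in the split, differences, 8 of 383 values changed sign. Part of the 383 could not, since log10 dose, a variance trend and leaving out the array of 0.1 mM do not alter a slope. DBP6 ran from -0.091 to 0.20 with an array left out, and NMD3 from -0.16 to 0.20. NMD3 was 0.082 with 1 median, 0.035 after quantile normalization, 0.77 with poly-A controls, and SSF1 0.64 with poly-A controls. In the split NMD3 had a difference between dose groups of 0.54. The cause was not tested.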

Other observations

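Among 10 regulators of ribosome genes 8 were measured, and FHL1 and CRF1 did not pass the filter on dim signals. DOT6, for a repressor that binds promoters of ribosome biogenesis genes, fell along the doses, with signals of 65.9, 66.3, 55.9, 30.0 and 16.3 and a slope of -0.52 ± 0.11 (SE, 5 arrays; adjusted p = 0.0413, limma). This call was lost in 10 of 16 other settings, among them arrays at 1 common median (adjusted p = 0.0815, limma). The adjusted p in limma ranged from 0.0143 to 0.391 over the 16. They include log10 dose, which equals dose order by construction and could not lose the call. With poly-A controls the slope was 0.30 (adjusted p = 0.141). DOT6 differed little between 0.01 and 0.1 mM. There 38 of the 46 assembly factor genes had their largest step, as did 2443 of all 4824 genes, by size in either direction. A link between DOT6 and the members was not tested. TOD6, the paralogue of DOT6, was named after its values were seen. It had 108, 47.9, 150.2, 130.0 and 147. Its lowest signal was at 0.01 mM, as in 44 of the 46 members and 26.6% of all genes. SCH9, for a growth-promoting kinase, had 51.7, 35.9, 39.9, 35.1 and 32.7 and did not pass (adjusted p = 0.320).

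In the order of genes in RefSeq R64, 4 of the 46 members lie next to another gene of the ribosome assembly lists, 8.7%, against 5.66% of all measured genes, so neighbours of this kind were few. SSF1 is transcribed away from RRP3, a helicase gene of the small subunit. RRP3 had 109, 63.1, 163, 112 and 139 and so had its lowest signal at 0.01 mM and its highest at 0.1 mM, while SSF1 was level from 0.01 mM on.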
